A study of Sinotaia aeruginosa with 24 samples.

Results

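The response of the brain to a combined diet of cadmium and polystyrene was set against the response of the liver to the same diet in the freshwater snail Sinotaia aeruginosa (Bellamya aeruginosa in the title of the series). The quantity compared was the log2 change from control to combined exposure in brain minus the log2 change from control to combined exposure in liver. Of 24 RNA libraries in the series, 12 were compared: 3 of combined-exposure brain (replicates 4 to 6), 3 of control brain (4 to 6), 3 of combined-exposure liver (1 to 3) and 3 of control liver (1 to 3). The filter, the scaling and the estimate of spread came from all 24 libraries, those given a single agent included. Of 233875 assembled transcript clusters in the table, 78809 passed a filter on low counts and were tested, and 1557 of them (1.98%) answered differently in the tissues at an adjusted p below 0.05. With the fit made on the 12 compared libraries alone, 818 clusters were called, 724 of them among the 1557. All groups had been sampled on day 42. Exposed snails received algae carrying both agents at a level that the labels call medium, with no value given, and control snails are labelled as having had no handling. The labels name no strain, age or number of animals, and whether the 3 libraries of a group are 3 animals is not stated. The p-values therefore cover the spread among libraries, which may be technical.

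The organ labelled liver corresponds in snails to the digestive gland, where food is absorbed and where metals are bound and stored. Cadmium takes the place of essential metals and binds thiols, while polystyrene particles are swallowed with the food and meet the gut lining first. The brain is a ring of ganglia in a connective sheath and does not meet the diet directly. A name gives the best database match and so the family, and reads can be split between near-identical clusters. Levels are given as CPM, counts scaled to a common library total, with a correction for composition, and every log2 value is a change or a difference of changes with its standard error. Adjusted p-values come from edgeR's quasi-likelihood test with Benjamini-Hochberg adjustment over all 78809 clusters.

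The 24 libraries held 1.37e+07 to 1.71e+07 expected counts each, and 44524 to 57637 clusters reached 10 counts. The tissue labels went with their markers. Clusters named for neurons and synapses, 109 of which were tested, summed to 2290.1 to 3549 CPM in the 6 brain libraries and to 1453 to 1819.8 CPM in the 6 liver libraries. The 122 digestive gland clusters summed to 5156 to 10753 CPM in brain and to 57406 to 75873 CPM in liver. Muscle clusters were abundant in the brain libraries and their sums moved with the exposure in both tissues: 51 of them summed to 28365 to 49749.5 CPM in combined brain, against 12664 to 24744 CPM in control brain. In liver they summed to 2207 to 2256 CPM in combined samples, against 1560.2 to 1757 CPM in controls, which also lay apart. Of these muscle clusters 16 rose and 0 fell in brain, and 2 rose and 0 fell in liver. For the difference 0 were called by edgeR (10 at an unadjusted p under 0.05, against 12092 of all 78809 clusters, and 0 by DESeq2). Their part in the changes described here was not tested, and in bulk tissue fewer cells of a type and less RNA per cell cannot be told apart. Control brain 5 stood furthest from its group, with a mean correlation of 0.939 to the other 2 control brains, where the other 11 libraries lay at 0.955 to 0.969.

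In brain 3032 clusters (3.85%) were called, 1761 higher (2.23%) and 1271 lower (1.61%) under combined exposure. Without control brain 5 the balance turned, with 875 higher and 913 lower. In liver 3091 (3.92%) were called, 1182 higher (1.5%) and 1909 lower (2.42%). Called in both tissues were 244 clusters, which made 8.05% of the brain calls and 7.89% of the liver calls. Of these, 71 rose in both, 81 fell in both and 92 moved in opposite directions. A call in 1 tissue alone does not show that the tissues differed. Over the 33345 clusters that reached a mean of 1 CPM in both tissues, the log2 changes of brain and liver had a Pearson r of 0.153 and a Spearman rho of 0.0712, a description over clusters that share libraries and are not independent.

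The difference itself was positive, meaning that the brain change lay above the liver change, for 942 clusters (1.2%) and negative for 615 (0.78%). Among the positive ones 355 rose in brain with no call in liver, 400 fell in liver with no call in brain, 59 did both, and 128 were called in neither tissue alone. Among the negative ones 256 fell in brain with no call in liver, 211 rose in liver with no call in brain, 33 did both, 2 fell in both and 113 were called in neither. The smallest absolute difference among the called clusters was 0.69 on the log2 scale and the median was 4.81. The last cluster inside the threshold had an adjusted p of 0.04998 and the first outside it 0.05002. With each of the 12 libraries left out in turn, 568 clusters, 361 positive and 207 negative, kept their call in every omission. The total moved most without control liver 2 (892), combined liver 2 (945) and combined liver 3 (976).

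**Figure D1:**
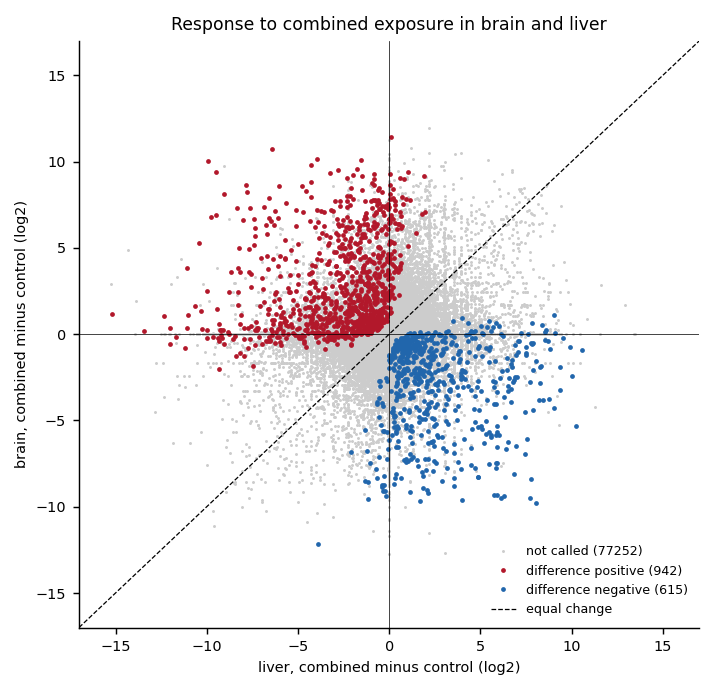
Each point is 1 of 78809 tested clusters, with the log2 change from control to combined exposure in liver on the horizontal axis and in brain on the vertical axis; the dashed line marks equal change. The 942 clusters with a positive difference (red) lie above the line and the 615 with a negative difference (blue) below it.

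Of the 1557, 966 reached 1 CPM in both tissues, which was 2.9% of the 33345 such clusters tested. A further 177 were present in brain alone (1.54% of 11512), 301 in liver alone (2.02% of 14866) and 113 in neither (0.592% of 19086). Brain and liver lay closer together under combined exposure than in controls for 818 of the called clusters and further apart for 739 (47.5%, against 49% of all clusters tested). For 335 clusters the order of the tissues turned over: the tissue with the higher level under combined exposure was the one with the lower level in controls, with both tissue differences called. Differences between the tissues as such were far more common, with 38457 clusters called under combined exposure (48.8%) and 39192 in controls (49.7%). Under combined exposure 18729 were higher in brain (23.8%) and 19728 lower (25%), and in controls 18510 (23.5%) and 20682 (26.2%). Informative names were held by 446 of the 1557 clusters and by 19428 of those tested. The gene lists below hold clusters with informative names only. Of those 19428, 2.3% were called, 325 positive and 121 negative, with a median difference of 0.13. No count at all in at least 1 of the 4 groups was recorded for 438 of the 1557. Many log2 values therefore have no upper limit, and levels are given first below.

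Inhibitors of apoptosis, proteins with baculoviral repeats that bind and block caspases and that form large families in molluscs such as oysters, included clusters with opposite responses. Of 86 tested clusters with such names 6 had a positive and 2 a negative difference (9.3%). This share was 1.98% over all clusters and 2.3% over those with informative names. The median difference over the family was 0.32, against 0.01 over all clusters and 0.13 over those with informative names. In brain 4 of the 86 rose and 0 fell, while in liver 2 rose and 7 fell. Over all clusters, the background for each list below, 2.23% rose and 1.61% fell in brain, and 1.5% rose and 2.42% fell in liver. One of the inhibitors, Cluster-2499.95251, was at 9.09, 4.92 and 3.45 CPM in combined brains, against 0 CPM in each of the 3 control brains. In liver it was at 1.74, 0.545 and 1.19 CPM in combined samples, against 8.84, 10.7 and 4.87 CPM in controls. The groups did not overlap in either tissue, and the level in combined brain was at least 109.9-fold higher than in control brain, taken at a floor of 3 counts over the group. By edgeR the rise in brain had an adjusted p of 0.000576, the fall in liver (log2 change -2.80 ± 0.73) one of 0.0347 and the difference one of 0.000352.

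Another, Cluster-2499.76001, was at 10.0, 6.36 and 6.63 CPM in combined brains, against 3.21, 1.49 and 2.25 CPM in control brains. It was at 4.97, 3.54 and 3.41 CPM in combined livers, against 9.63, 11.2 and 9.65 CPM in control livers. Again no combined sample overlapped the controls of its tissue, and the higher level was in brain under combined exposure and in liver among controls. The log2 change was 1.72 ± 0.31 in brain and -1.35 ± 0.30 in liver, and the difference 3.07 ± 0.43 (edgeR adjusted p = 0.000434). A further one, Cluster-2499.97412, moved the same way, with 33.4, 15.1 and 17.9 CPM in combined brains against 6.89, 2.76 and 6.05 CPM in control brains. Its liver levels were 13.0, 8.63 and 8.70 CPM under combined exposure and 25.8, 28.4 and 22.0 CPM in controls (difference 3.40 ± 0.49, edgeR adjusted p = 0.000648).

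Baculoviral IAP repeat-containing protein 7-B (Cluster-2499.106002) went the other way. Combined brains held 4.58, 3.78 and 7.22 CPM against 6.10, 3.87 and 5.74 CPM in control brains, and liver rose to 28.5, 13.5 and 20.6 CPM against 3.41, 3.06 and 2.96 CPM in controls. Its brain groups overlapped and its liver groups lay apart (difference -2.74 ± 0.58, edgeR adjusted p = 0.0129). Summed over the 86 tested clusters of the family, the level was 1073 to 1316 CPM in combined brain and 609.7 to 1064 CPM in control brain, and 1060.2 to 1128 CPM in combined liver and 1164 to 1325 CPM in control liver. The sums lay apart within each tissue, brain higher and liver lower under combined exposure. Of the family 4 members were called without control liver 2 or combined brain 6, and 5 without control liver 3, combined liver 2, combined liver 3 or control brain 6. The caspases, the proteases these proteins hold back, had no called difference, and 5 fell in brain. Of 46 tested caspase clusters 0 were called by edgeR (7 at an unadjusted p under 0.05, against 12092 of all 78809 clusters, and 1 by DESeq2). Their median difference was -0.51, against 0.01 over all clusters and 0.13 over those with informative names. Their sum was 261, 310.0 and 329 CPM in combined brains, against 434, 344 and 473 CPM in control brains, which lay apart. It was 196, 223 and 192 CPM in combined livers and 194, 182 and 208 CPM in control livers, which overlapped. Without combined liver 1 the count of called caspases was 2 and without combined brain 6 it was 1.

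In all, 92 clusters, these inhibitors included, were called in opposite directions in brain and liver, and in each of the 12 omissions all 92 kept the call for the difference. Neogenin (Cluster-2499.92555), a receptor for netrins and guidance molecules in vertebrates, rose in brain to 15.2, 10.5 and 11 CPM against 6.73, 5.58 and 4.36 CPM in controls. It fell in liver to 2.81, 2.09 and 1.62 CPM against 5.60, 6.46 and 6.49 CPM. In controls the 2 organs held similar levels, and under combined exposure the brain held the higher one in every library (difference 2.64 ± 0.46, edgeR adjusted p = 0.00299). Glutathione-specific gamma-glutamylcyclotransferase 1 (Cluster-2499.101116), which breaks down the thiol glutathione, was at 30.7, 30.3 and 24.9 CPM in combined brains, against 17.2, 8.29 and 18.3 CPM in control brains. In liver it was at 3.97, 4.0 and 4.44 CPM under combined exposure, against 10.1, 10.2 and 9.07 CPM in controls. Neither tissue showed an overlap (difference 2.21 ± 0.38, edgeR adjusted p = 0.00246).

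**Figure D2:**
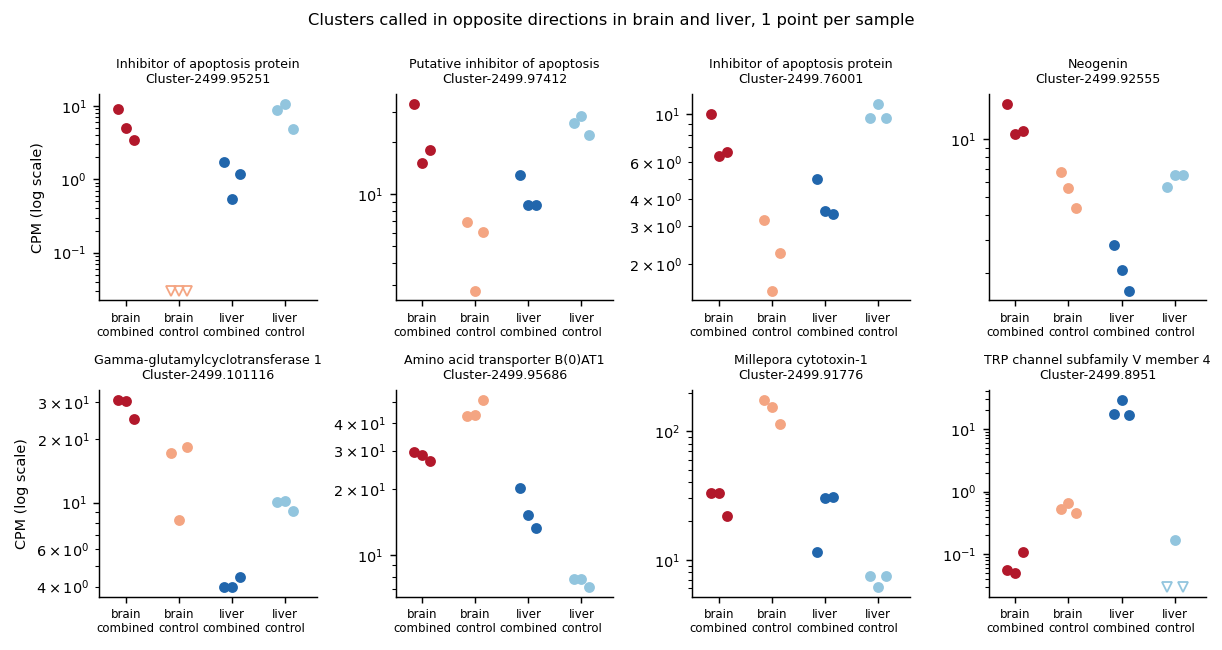
Levels in CPM (log scale) of the 8 named clusters called in opposite directions with the smallest adjusted p, 1 point per library, combined exposure left of control and brain left of liver; open triangles at the lower edge mark libraries at 0. In the first 5 panels the combined brains lie above and the combined livers below their controls, and in the last 3 panels the reverse, with no overlap inside a tissue.

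The reverse pattern, lower in brain and higher in liver, was shown by 3 of the named clusters. The neutral amino acid transporter B(0)AT1 (Cluster-2499.95686), a sodium-driven uptake carrier of gut and kidney in mammals, fell in brain to 29.5, 28.8 and 26.8 CPM against 43.3, 43.6 and 51.2 CPM in controls. It rose in liver to 20.3, 15.4 and 13.4 CPM against 7.79, 7.82 and 7.16 CPM. The changes were modest and tight, at -0.70 ± 0.19 in brain and 1.11 ± 0.20 in liver (difference -1.80 ± 0.27, edgeR adjusted p = 0.000929). A cluster matching a fire coral toxin, Millepora cytotoxin-1 (Cluster-2499.91776), had 33.0, 33.2 and 21.9 CPM in combined brains and 176, 153 and 115 CPM in control brains. It had 11.4, 30.3 and 30.6 CPM in combined livers and 7.53, 6.12 and 7.54 CPM in control livers. Its difference was -4.10 ± 0.53 (edgeR adjusted p = 0.000339), and the large gap between brain and liver seen in controls was nearly gone under exposure.

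Transient receptor potential cation channel subfamily V member 4 (Cluster-2499.8951), a channel opened by osmotic and mechanical stimuli in mammals, had the smallest adjusted p of all named clusters (edgeR, 1.27e-05). It was at 0.0558, 0.0497 and 0.108 CPM in combined brains and at 0.526, 0.663 and 0.461 CPM in control brains. Livers held 17.1, 29.1 and 16.7 CPM under combined exposure and 0, 0.170 and 0 CPM in controls. The rise in liver was thus from 2 counts over the control group, for which no fold is given, and the brain levels rested on 4 and 31 counts. With cadmium alone the liver stood at 0 CPM and with polystyrene alone at 4.62 ± 2.58 CPM (SD, n = 3 each).

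Immune families also had members whose response depended on the organ. GTPases of the IMAP family, which act in lymphocyte survival in mammals and in defence in molluscs, had 8 positive and 3 negative differences among 152 tested clusters (7.24%). That share was 1.98% over all clusters and 2.3% over those with informative names. In brain 18 rose and 2 fell, where 2.23% and 1.61% of all clusters did. In liver 3 rose and 4 fell, where 1.5% and 2.42% of all clusters did. Their sum was 293, 322 and 439.7 CPM in combined brains, against 185, 137 and 196 CPM in control brains. It was 408, 461 and 443 CPM in combined livers and 453, 436 and 484 CPM in control livers, so the sums lay apart in brain and overlapped in liver. GTPase IMAP family member 9 (Cluster-2499.86745) appeared in brain at 0.502, 3.83 and 8.03 CPM, against 0 CPM in each control brain, at least 77.8-fold higher by the same floor. It held 3.64, 3.91 and 5.29 CPM in combined livers and 10.2, 7.74 and 5.16 CPM in control livers, which overlapped (edgeR adjusted p of the difference = 0.000922). A member 4 cluster (Cluster-2499.104178) held 7.70, 10.3 and 10.4 CPM in combined brains, against 4.58, 8.84 and 5.33 CPM in control brains, and fell in liver to 0.414, 0 and 0.256 CPM, against 4.99, 1.11 and 3.06 CPM (difference 4.29 ± 0.74, edgeR adjusted p = 0.00255). The number of called members was 5 without control brain 5, 6 without combined brain 5, and 7 without control brain 6 or combined liver 2.

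Among 184 lectin and C1q clusters, secreted proteins that bind sugars or other surface groups, 3 had a positive and 3 a negative difference (3.26%). That share was 1.98% over all clusters and 2.3% over those with informative names. Complement C1q-like protein 4 (Cluster-2499.58174) rose in brain to 43.3, 31.7 and 21.9 CPM against 0.631, 0.884 and 3.74 CPM in controls, an 18.4-fold change. In liver it stood at 4.30, 5.36 and 1.71 CPM under combined exposure and at 5.43, 11.2 and 10.1 CPM in controls, with no call (difference 5.43 ± 1.03, edgeR adjusted p = 0.00936). C1q-like protein 3 (Cluster-2499.36984) rose in the other organ. Its brain levels overlapped at 185, 84.3 and 272 CPM against 194, 65.1 and 85.2 CPM, while combined livers held 17.4, 6.0 and 14.1 CPM, against 0.350, 0.255 and 0 CPM in control livers. That difference was -5.21 ± 1.07 (edgeR adjusted p = 0.0167). Galectin-3b (Cluster-2499.85793) held 2.79, 2.53 and 1.13 CPM in combined brains and 0.158, 1.99 and 0.717 CPM in control brains, and fell in liver to 11.1, 3.36 and 6.14 CPM against 99.1, 289.7 and 216 CPM (difference 6.05 ± 0.90, edgeR adjusted p = 0.00178). A C-type lectin (Cluster-2499.65119) fell in brain to 0.893, 2.63 and 2.75 CPM against 14.9, 9.45 and 7.79 CPM, and livers held 2.40, 5.18 and 3.92 CPM against 3.59, 1.79 and 2.01 CPM (difference -2.98 ± 0.53, edgeR adjusted p = 0.00355).

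Of 127 clusters of Toll, TNF and NF-kappa-B signalling, 4 had a positive and 2 a negative difference (4.72%, against 1.98% of all clusters). In brain 9 rose and 1 fell. The one that fell, named for the decoy receptor Tumor necrosis factor receptor superfamily member 11B (Cluster-2499.100633), was at 1.95, 3.73 and 3.99 CPM in combined brains, against 11.1, 12.3 and 13.6 CPM in control brains. Liver levels overlapped, at 4.63, 6.45 and 4.35 CPM against 6.21, 5.19 and 3.92 CPM (difference -1.94 ± 0.42, edgeR adjusted p = 0.0142). The count of called members was 2 without control liver 3 or combined liver 3. It was 3 without control liver 2, combined liver 1 or 2, control brain 5 or 6, or combined brain 4 or 6. Of 238 clusters with a ficolin or fibrinogen domain, a fold of secreted pattern receptors, 6 had a positive and 0 a negative difference (2.52%). That share was close to the 1.98% of all clusters and the 2.3% of those with informative names. The median difference over the list was -0.01. Tenascin (Cluster-2499.23441), an extracellular glycoprotein with such a domain, rose in brain to 1.17, 0.596 and 0.701 CPM against 0, 0.0552 and 0.0512 CPM, and stood at 4.72, 11.2 and 10.2 CPM in combined livers and 7.18, 5.53 and 15.2 CPM in control livers (edgeR adjusted p of the difference = 0.00811).

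Among the largest named differences were clusters that control livers held in quantity, combined livers had all but lost, and brain hardly held under either diet. Peritrophin-1 (Cluster-2499.85065), a chitin-binding protein of the lining that sheaths food in the insect gut, was at 0, 0.397 and 1.08 CPM in combined brains and at 0.263, 0.0552 and 0.307 CPM in control brains. Combined livers held 0.0828, 0 and 0 CPM, against 312, 2896 and 944 CPM in control livers. SCO-spondin (Cluster-2499.89586), a giant secreted glycoprotein, was at 0.335, 0.348 and 1.08 CPM in combined brains against 0.526, 0.221 and 0.615 CPM, and at 0.248, 0 and 0.0853 CPM in combined livers, against 475, 872 and 188 CPM in control livers. Both were thus lost from all 3 exposed livers to within a few counts, while the 3 control livers differed several-fold among themselves with control liver 2 the highest. SCO-spondin had a log2 change of 0.35 ± 0.75 in brain and -12.03 ± 0.84 in liver (difference 12.38 ± 1.17, edgeR adjusted p = 6.51e-05). The difference of Peritrophin-1 had an edgeR adjusted p of 0.0164, and of 0.176 without combined brain 6.

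Other clusters showed this pattern in the same libraries. Glutamate carboxypeptidase 2 (Cluster-2499.86366), a membrane peptidase, was at 0.502, 0.546 and 1.19 CPM in combined brains against 0.526, 0.221 and 1.54 CPM, and at 0.910, 0.182 and 0.512 CPM in combined livers, against 282, 559 and 145 CPM in control livers (difference 9.17 ± 1.53, edgeR adjusted p = 0.00458). Perivitellin-2 67 kDa subunit (Cluster-2499.69505), an egg protein of apple snails, was at 0.112, 1.69 and 0.377 CPM in combined brains and at 0, 0.166 and 0.0512 CPM in control brains. Combined livers held 0.248, 0.0908 and 0.341 CPM of it, against 14.4, 42.1 and 31.3 CPM in control livers (difference 10.19 ± 1.18, edgeR adjusted p = 9.8e-05). Neither was called in brain, and the liver groups of both lay far apart. Mucin-2 (Cluster-2499.99323), a gel-forming mucin, was at 0, 0 and 0.0853 CPM in combined livers against 50.5, 153 and 33.8 CPM, and the protease ADAMTS18 (Cluster-2499.87066) at 0.993, 0.0908 and 1.02 CPM against 613, 686 and 90.2 CPM. For these last, the call for the difference (edgeR adjusted p = 0.0288 and 0.0254) depended on single libraries: mucin-2 lost it without combined liver 2 or 3, control brain 5 or combined brain 5 or 6 (up to 0.347), and ADAMTS18 without control liver 2, combined liver 2 or 3, control brain 5 or combined brain 4 or 5 (up to 0.101). Their fall in liver was called, and their level in brain stayed at or below 1.04 CPM.

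A second set was held by brain throughout and lost from liver. Chitin synthase chs-2 (Cluster-2499.91850), an enzyme that makes chitin, was at 114, 102 and 203 CPM in combined brains and at 157, 80.8 and 138 CPM in control brains. It was at 0 CPM in each combined liver, against 63.5, 166 and 40.4 CPM in control livers, at least 1042-fold lower. The brain levels overlapped and the liver levels lay apart (edgeR adjusted p of the difference = 0.00547). Mucin-5AC-like (Cluster-2499.94186) was at 23.0, 14.6 and 40.4 CPM in combined brains against 36.5, 28.9 and 18.3 CPM, and at 0, 0 and 0.0853 CPM in combined livers against 9.10, 22.1 and 6.59 CPM (edgeR adjusted p = 0.00183). Protein HEG (Cluster-2499.57711), a membrane glycoprotein of vessel junctions in fish, was at 21.5, 8.35 and 22.4 CPM in combined brains and 17.4, 7.40 and 15.7 CPM in control brains. It had 0 CPM in each combined liver, against 1.58, 2.64 and 0.859 CPM in control livers (edgeR adjusted p = 0.00435).

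**Figure D3:**
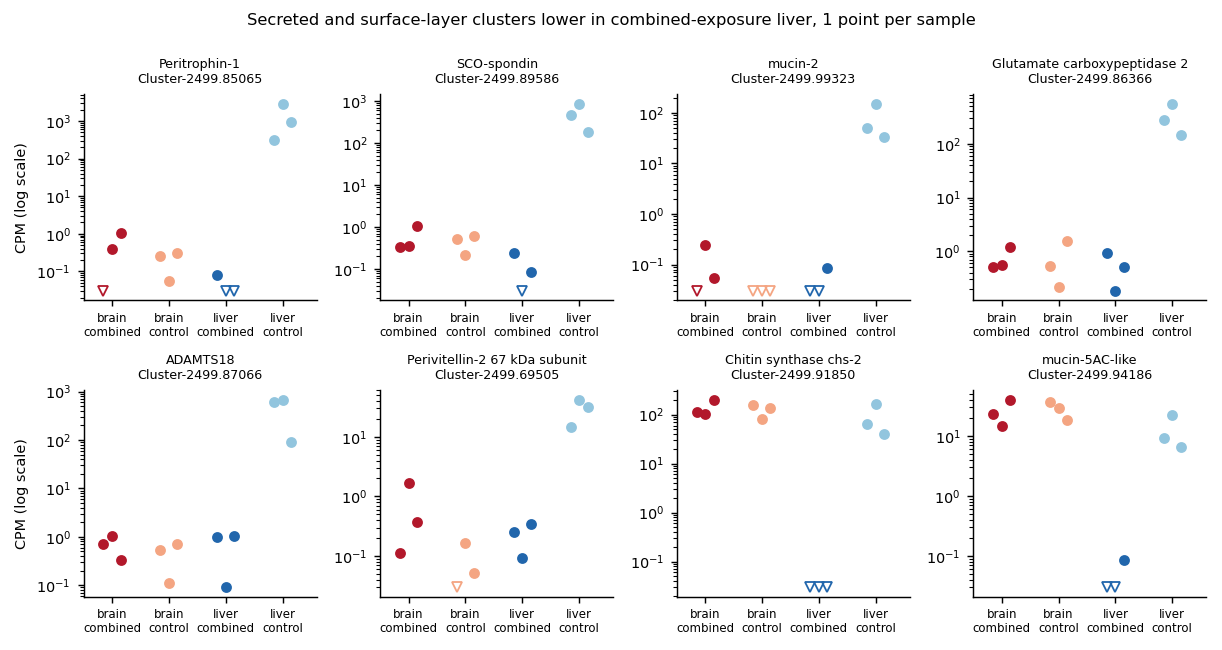
Levels in CPM (log scale) of 8 named clusters that fell in combined-exposure liver, 1 point per library, combined exposure left of control and brain left of liver; open triangles mark libraries at 0. In the first 6 panels control liver alone stands high, and in the last 2 panels, chitin synthase chs-2 and mucin-5AC-like, both brain groups stand as high as control liver.

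The levels of these clusters in livers given a single agent, set against the same control libraries, were as follows. SCO-spondin was at 0.0299 ± 0.0517 CPM in livers given cadmium and at 0 CPM in those given polystyrene (SD, n = 3 each). Glutamate carboxypeptidase 2 was at 0.277 ± 0.197 CPM with cadmium and 8.10 ± 11.1 CPM with polystyrene, and chitin synthase chs-2 at 0.503 ± 0.530 and 6.38 ± 7.55 CPM. Peritrophin-1 was at 0.309 ± 0.321 CPM with cadmium and at 108 ± 143 CPM with polystyrene. The spread among livers given polystyrene was as large as their mean in these last 3 clusters.

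Many ciliary clusters, which encode the axoneme and its transport in ciliated epithelia and sperm tails, fell in liver. Of 151 tested, 12 had a positive and 0 a negative difference (7.95%, against 1.98% of all clusters and 2.3% of those with informative names). The median difference was 1.05, against 0.01 over all clusters and 0.13 over those with informative names. In brain 0 fell and 1 rose, in liver 62 fell and 2 rose, and all 12 called for the difference had fallen in liver. The sum was 2333, 2396 and 2589 CPM in combined brains and 2714, 2052 and 3417 CPM in control brains, which overlapped. It was 674, 730.5 and 743 CPM in combined livers, against 1023, 2319 and 1514 CPM in control livers, which lay apart. A cluster named for protein 61 of cilia and flagella (Cluster-2499.59043) had 10.7, 11.9 and 12.5 CPM in combined brains, 13.5, 9.89 and 16.2 CPM in control brains, 0.662, 1.27 and 1.19 CPM in combined livers and 4.38, 13.5 and 6.68 CPM in control livers (difference 2.79 ± 0.52, edgeR adjusted p = 0.00462).

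The brain groups of that cluster overlapped and its liver groups lay apart. Of 47 sperm and testis clusters 2 had a positive difference (4.26%, against 1.98% of all clusters and 2.3% of those with informative names) and 8 fell in liver. The sperm count was 5 without control liver 1, 2 without control brain 6 and 1 without any other single library. Spermatogenesis-associated protein 1 (Cluster-2499.108246) was at 8.43, 10.4 and 10.2 CPM in combined brains against 9.52, 8.01 and 13.1 CPM, and at 0.248, 0.999 and 0.682 CPM in combined livers against 3.24, 8.84 and 4.30 CPM (difference 3.01 ± 0.59, edgeR adjusted p = 0.00804). Control liver 2, the liver library with the highest ciliary sum, was also the highest for SCO-spondin, Peritrophin-1, mucin-2 and chitin synthase chs-2. The part of ciliated or other tissue taken with the liver samples in these losses was not tested, and 1 of the 151 ciliary clusters had no count in combined liver, as in control liver. The count of ciliary clusters called for the difference was 35 without control liver 1, 3 without control liver 2, 4 without combined liver 2, 6 without combined liver 3, control brain 4 or control brain 5 (5 positive, 1 negative in the last) and 7 without combined brain 6.

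Among the most abundant named clusters with a positive difference were these. Chorion peroxidase (Cluster-2499.101633), an enzyme that hardens egg shells in insects, was at 2181, 1712 and 4275 CPM in combined brains and 2971, 2246 and 2220.1 CPM in control brains. Combined livers held 1.32, 1.54 and 1.11 CPM, against 3.15, 34.4 and 22.4 CPM in control livers. The brain groups overlapped, and the traces in liver lay apart (difference 4.04 ± 0.81, edgeR adjusted p = 0.0129). Tubulin beta chain (Cluster-2499.88465), the building block of microtubules, stood in brain at 3904, 3082 and 3336 CPM against 2899.6, 2293 and 3132 CPM, and fell in liver to 1263, 1356 and 1332 CPM against 1731, 2401 and 1928 CPM (difference 0.93 ± 0.23, edgeR adjusted p = 0.0315). It lost the call without control liver 2, combined liver 1, 2 or 3 or combined brain 4 (adjusted p up to 0.106).

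Of 214 collagen and matrix clusters 10 had a negative and 4 a positive difference (6.54%, against 1.98% of all clusters and 2.3% of those with informative names). Of the 10, 2 had fallen in brain and 8 had risen in liver. Over the list, 11 rose and 11 fell in brain, and 11 rose and 8 fell in liver. The median difference was 0.15, with 110 members positive and 104 negative in sign, and the median liver change was 0.09. Summed, the list held 9971, 6451 and 11113 CPM in combined brains and 10135, 6008 and 10571 CPM in control brains, which overlapped. Combined livers held 32184, 29609 and 33125 CPM, against 24730.4, 25655 and 29176 CPM in control livers, which lay apart. Collagen alpha-1(XII) chain (Cluster-2499.80168), which binds the surface of collagen fibrils, was at 56.5, 49.5 and 53.8 CPM in combined brains and 72.3, 45.8 and 68.3 CPM in control brains. It rose in liver to 18.7, 29.7 and 36.2 CPM against 10.9, 10.7 and 11.4 CPM (difference -1.58 ± 0.31, edgeR adjusted p = 0.00672). Hemicentin-1 (Cluster-2499.108007), an extracellular protein that joins tissues along basement membranes, was at 0.781, 0.845 and 0.539 CPM in combined brains against 1.68, 1.82 and 2.20 CPM, and rose in liver to 16.1, 5.63 and 9.55 CPM against 1.75, 0.680 and 0.286 CPM (difference -4.89 ± 0.66, edgeR adjusted p = 0.000335).

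Hemicentin-1 lay apart in both organs, although its change in brain was not called (edgeR adjusted p = 0.0974). With the single agents its brain level was 9.12 ± 2.08 CPM for cadmium and 2.55 ± 1.17 CPM for polystyrene, and its liver level 0.541 ± 0.162 and 1.98 ± 0.356 CPM (SD, n = 3 each). A second cluster, hemicentin-2-like (Cluster-2499.91931), rose in brain to 12.4, 1.84 and 4.80 CPM against 0.0526, 0 and 0 CPM, and overlapped in liver at 0.497, 3.54 and 4.61 CPM against 3.41, 1.45 and 0.382 CPM (edgeR adjusted p of the difference = 0.0115). The 2 hemicentin clusters thus differed in opposite directions. The number of called matrix clusters was 6 without combined liver 3, 7 without control liver 2, combined liver 2 or combined brain 5, 8 without control liver 3 and 9 without control brain 4.

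Mitochondrially encoded clusters, fragments of the transcripts for the core subunits of the respiratory chain, formed the list with the most negative differences. Of 92 tested, 12 had a negative and 0 a positive difference (13%, against 1.98% of all clusters). In brain 17 fell and 4 rose, in liver 5 fell and 2 rose, and of the 12 called 10 had fallen in brain. Cytochrome c oxidase subunit 1 (Cluster-2499.84918) was at 1.67, 5.27 and 4.74 CPM in combined brains, against 349, 407 and 847 CPM in control brains. Livers held 524, 527 and 751 CPM under combined exposure and 359, 649.5 and 1679 CPM in controls. Brain thus lost this fragment by a log2 change of -7.09 ± 0.69 while liver kept it at an overlapping level (difference -6.52 ± 0.82, edgeR adjusted p = 0.000437).

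Cytochrome b (Cluster-2499.80522) was at 0.279, 2.68 and 3.50 CPM in combined brains against 307, 107 and 896 CPM in control brains, and at 448, 139 and 375 CPM in combined livers against 21.8, 196 and 109 CPM in control livers. The brain groups lay far apart and the liver groups overlapped (difference -9.21 ± 1.66, edgeR adjusted p = 0.00844). Cytochrome c oxidase subunit 3 (Cluster-2499.88543) was at 138, 137 and 114 CPM in combined brains against 325, 1693 and 536 CPM, and at 425, 134 and 268 CPM in combined livers against 142, 189.9 and 159.6 CPM (difference -3.47 ± 0.66, edgeR adjusted p = 0.00911). ATP synthase subunit a (Cluster-2499.86597), of the proton channel, was at 107, 71.6 and 64.5 CPM in combined brains against 395, 596 and 916 CPM, and at 263, 198 and 357 CPM in combined livers against 119.5, 206 and 117 CPM (difference -3.86 ± 0.79, edgeR adjusted p = 0.016). In both the brain groups lay apart with the combined samples low.

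The sums over all fragments of a gene mostly did not follow the single fragments. All 92 clusters together held 22615 to 31312 CPM in combined brain, 24997 to 52397 CPM in control brain, 24442 to 26249 CPM in combined liver and 23083 to 28111 CPM in control liver. The 12 called clusters, chosen by these values and given as a description, held 374, 325 and 232 CPM in combined brains, 2025, 5563 and 4153 CPM in control brains, 1691 to 2495 CPM in combined livers and 1254 to 2688 CPM in control livers. The other 80 held 30939, 29066 and 22382 CPM in combined brains and 23395, 46834 and 20844 CPM in control brains. By gene, the 14 clusters of cytochrome c oxidase subunit 1 summed to 10871, 10455 and 8600 CPM in combined brains and 9577, 16782 and 8401 CPM in control brains. The 10 clusters of cytochrome b summed to 5096, 4469 and 3388 CPM in combined brains and 4037, 8592 and 4307 CPM in control brains.

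For both genes the brain groups overlapped, and control brain 5 held the highest sum. NADH dehydrogenase subunit 4L was the exception among 12 genes: its 3 clusters summed to 85.3, 46.8 and 33.6 CPM in combined brains, below the 150.0, 396 and 315 CPM in control brains. Fragments and near-identical variants of 1 transcript can share reads, and the part of this in the values was not tested. Nuclear-encoded subunits of the same chain gave 0 calls for the difference among 57 by edgeR (4 at an unadjusted p under 0.05, against 12092 of all 78809 clusters, and 0 by DESeq2). Without control brain 5 the mitochondrial list had 3 positive and 9 negative differences. The fragment of cytochrome c oxidase subunit 1 stood at 234 ± 40.7 CPM in brains given cadmium and 302 ± 185 CPM in those given polystyrene, and cytochrome b at 0.291 ± 0.119 and 1.72 ± 1.20 CPM (SD, n = 3 each).

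**Figure D4:**
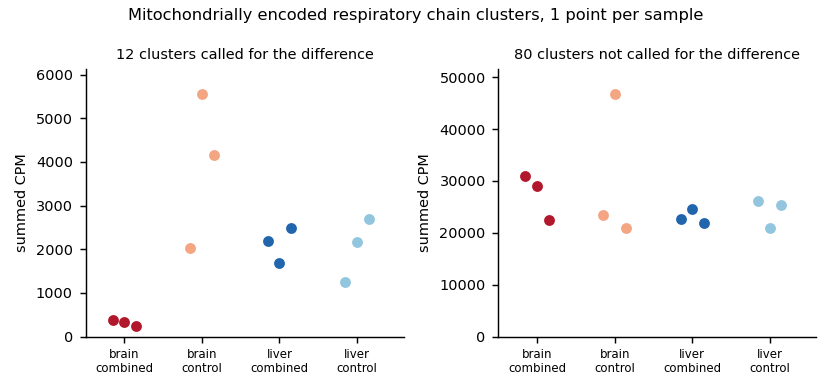
Summed CPM of the 12 mitochondrially encoded clusters called for the difference (left) and of the other 80 (right), 1 point per library, combined exposure left of control and brain left of liver; both axes start at 0. On the left the 3 combined brains lie at 232 to 374 CPM, below the 9 other libraries, and on the right they lie among the rest, with control brain 5 highest at 46834 CPM.

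Of 117 clusters for carbohydrate digestion 7 had a positive and 0 a negative difference (5.98%, against 1.98% of all clusters and 2.3% of those with informative names). Of the 7, 2 had risen in brain and 5 had fallen in liver. Summed, the list held 36040, 33639.5 and 37716 CPM in combined livers and 31544, 28176 and 36115.5 CPM in control livers, which overlapped. It held 1995, 1369 and 2223 CPM in combined brains and 2588, 1491 and 4248 CPM in control brains, which overlapped too. The median liver change over the list was 0.10. Lactase/phlorizin hydrolase (Cluster-2499.87649), a beta-glycosidase, held 8.03, 7.70 and 5.45 CPM in combined brains and 6.26, 8.29 and 5.69 CPM in control brains, and fell in liver to 5.96, 6.0 and 8.87 CPM against 69.8, 108 and 37.8 CPM. Under combined exposure the liver levels came near those of brain, with combined liver 3 above every brain library (difference 3.44 ± 0.56, edgeR adjusted p = 0.00237). Beta-mannosidase (Cluster-2499.90127), a lysosomal and digestive glycosidase, held 46.0, 45.7 and 53.0 CPM in combined brains and 37.7, 27.0 and 36.4 CPM in control brains, and fell in liver to 43.6, 38.6 and 42.9 CPM against 86.1, 112 and 57.1 CPM (difference 1.54 ± 0.26, edgeR adjusted p = 0.00197). Trypsin-1 (Cluster-2499.128112), a serine protease more abundant here in brain than in liver, overlapped in brain at 12.2, 15.2 and 11.5 CPM against 12.8, 5.08 and 15.0 CPM, and was at 0 CPM in every combined liver, against 0.963, 1.79 and 0.859 CPM in control livers (edgeR adjusted p = 0.00274). The number of carbohydrate digestion calls was 3 without control brain 6 and 4 without control liver 3, combined liver 2, control brain 4 or 5 or combined brain 4 or 6.

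Some clusters abundant in liver rose in brain as traces. Inactive pancreatic lipase-related protein 1 (Cluster-2499.87865), a lipase family member without the active site in mammals, was at 0.446, 0.397 and 1.02 CPM in combined brains against 0.158, 0 and 0.102 CPM. Livers held 965, 820.1 and 906 CPM under combined exposure and 858, 674 and 833 CPM in controls. Deleted in malignant brain tumors 1 protein (Cluster-2499.88036), a secreted scavenger receptor, was at 1.28, 1.79 and 1.46 CPM in combined brains against 0.316, 0.276 and 0.461 CPM, while livers held 2024, 1625 and 1618 CPM against 1800.3, 1518 and 2007 CPM. Both stood far lower in brain than in liver. The sum of the digestive gland markers in brain overlapped between the groups, at 5725 to 8274 CPM under combined exposure and 5156 to 10753 CPM in controls, and the part of liver RNA in these traces was not tested. The calls for the difference (edgeR adjusted p = 0.033 and 0.0378) depended on single libraries. The lipase-related cluster lost it without control liver 3, combined liver 2 or 3, control brain 5 or 6 or combined brain 6 (up to 0.12), and the scavenger receptor without each library but combined liver 1 (up to 0.109). The digestive gland list had 4 positive differences among 122 (3.28%, against 1.98% of all clusters and 2.3% of those with informative names). The count was 1 without control liver 3 or control brain 6, and 2 without combined liver 2, control brain 5 (1 positive, 1 negative) or combined brain 4 or 6.

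Genes of the response to metals and stress had few called differences by number, though the short list of small heat shock proteins had the highest share of any list. The median difference over that list was 0.07, against 0.01 over all clusters and 0.13 over those with informative names. Of its members 7 were positive and 5 negative in sign. Small heat shock proteins, chaperones that hold unfolding proteins, included members that rose in each organ: of 12 tested 6 rose in brain and 3 in liver, with sums of 1347, 1008 and 863 CPM in combined brains against 442, 252 and 526 CPM, and of 456, 355 and 384 CPM in combined livers against 220.0, 212 and 194 CPM. No group overlapped its control, and the sum of muscle clusters also lay apart in brain in the same libraries, a part that was not tested. Of the 12, 2 had a positive difference (16.7%, against 1.98% of all clusters and 2.3% of those with informative names). The count was 1 without control liver 2, combined liver 2, control brain 5 or combined brain 4 or 6. Alpha-crystallin B chain (Cluster-2499.65186) was 1 of 2 members with a difference, at 29.6, 24.9 and 35.6 CPM in combined brains against 18.3, 13.3 and 16.6 CPM, and 19.0, 19.6 and 20.4 CPM in combined livers against 21.4, 23.6 and 21.4 CPM (difference 1.08 ± 0.25, edgeR adjusted p = 0.0254). It lost the call without control liver 2, combined liver 2, control brain 5 or combined brain 4 or 6 (adjusted p up to 0.0699).

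Of 36 clusters for metal transport and storage 1 differed (2.78%, against 1.98% of all clusters and 2.3% of those with informative names). It was Zinc transporter ZIP2 (Cluster-2499.79570), an uptake carrier for zinc. Brains held traces of 0.112, 0.248 and 0.108 CPM under combined exposure and 0.316, 0.331 and 0.307 CPM in controls. It rose in liver to 122, 168 and 187 CPM against 48.5, 56.5 and 73.8 CPM in controls, and with the single agents the liver held 79.4 ± 13.5 CPM for cadmium and 84.6 ± 7.60 CPM for polystyrene (SD, n = 3 each). Its liver rise was called at an edgeR adjusted p of 0.00216, but the call for the difference (-2.38 ± 0.58, adjusted p = 0.0321) held in 4 of 12 omissions and was lost without control liver 2, combined liver 2 or 3, any control brain, or combined brain 4 or 6 (up to 0.0843). No cluster in the table matched the name pattern for metallothionein, the small protein that binds cadmium.

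Enzymes that modify foreign compounds gave few differences. Among 163 cytochrome P450 clusters 1 was positive and 2 were negative (1.84%, close to the 1.98% of all clusters). Among 86 conjugating enzymes 1 was positive and 1 negative (2.33%, close to the 2.3% of clusters with informative names). Sulfotransferase 1A1 (Cluster-2499.94031), which adds sulfate to phenols, fell in brain to 4.74, 2.48 and 2.75 CPM against 7.63, 7.68 and 7.99 CPM, and was at 26.7, 38.6 and 29.3 CPM in combined livers and 25.0, 31.0 and 27.5 CPM in control livers (difference -1.40 ± 0.32, edgeR adjusted p = 0.0215, lost without combined liver 2 or combined brain 5 or 6 at up to 0.0665). Cytochrome P450 2U1 (Cluster-2499.85028), a fatty acid hydroxylase, was at 5.86, 8.20 and 6.36 CPM in combined brains against 14, 7.24 and 13.3 CPM, and at 47.9, 46.1 and 44.8 CPM in combined livers against 22.1, 20.2 and 40.3 CPM. It was called for the difference (-1.51 ± 0.34, edgeR adjusted p = 0.0188, but up to 0.0616 without control liver 2 or control brain 4) and in neither tissue alone. The cytochrome P450 count was 0 without control liver 2, 5 without control brain 5, and 1 without control liver 3, combined liver 2 or 3 or combined brain 5. The conjugating count was 0 without combined liver 2, and 1 without control liver 1, control brain 5 or 6 or any 1 combined brain.

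**Figure D5:**
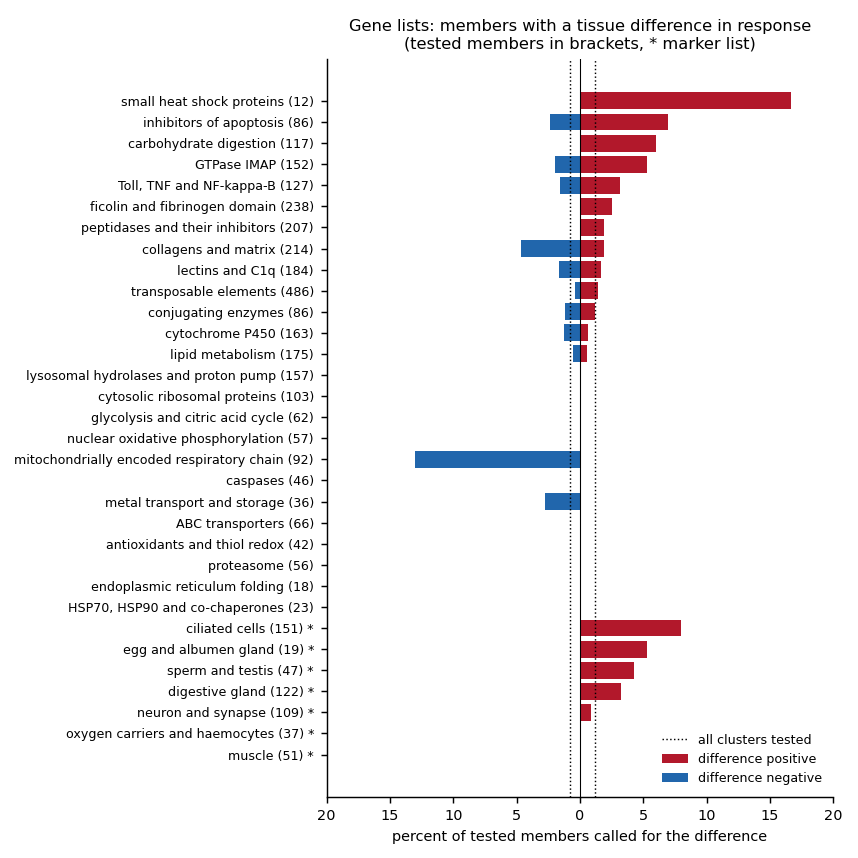
Percent of the tested members of each gene list that were called for the difference, positive to the right and negative to the left, with the number tested in brackets; dotted lines mark 1.2% positive and 0.78% negative over all 78809 clusters. Small heat shock proteins (2 of 12), mitochondrially encoded clusters (12 of 92), inhibitors of apoptosis (8 of 86), ciliated cells (12 of 151) and GTPase IMAP (11 of 152) have the longest bars, and 12 of the 32 lists have none.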

How the data were processed

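The deposited table, which the authors named as raw counts, holds 1 value per cluster and library. Of these, 3.54% to 7.14% of the values per library are not whole, so the values the authors deposited were read as “expected counts”. How clusters were assembled and reads assigned to them is not given in the sources used here; the submitters' processing notes list mm10, a mouse build that cannot belong to these clusters, and no coordinates or sequences were used. Per the labels, total RNA was taken with an Rneasy mini plus kit and libraries were made with the SMARTER kit.

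Values were rounded and fitted with edgeR 4.0.16 (R 4.3.3): filterByExpr at its default of 10 counts (99% of counts kept), TMM scaling, robust quasi-likelihood, 1 mean for each of the 8 groups over all 24 libraries, Benjamini-Hochberg adjustment, called at 0.05. CPM are TMM-scaled. With a group at 0 counts the fold is a bound from 3 counts over that group, for counting error only; with 1 to 3 counts none is given. Lists are name patterns described by counts and medians. Members, lists and tests were chosen with earlier results of these data known, and patterns were refined on product names after the table was seen.

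Named clusters, 79 in all, of which the text gives part, were called, had an informative name and reached 5 CPM in 1 of the 4 groups. They were the 8 largest differences each way, the 10 each way present in both tissues (1 CPM), the 8 opposite calls with the smallest adjusted p, up to 2 per list and direction, and the 5 most abundant each way. Those in the text were picked after their values were seen, mostly among the 46 kept in every omission. The procedure was tested on simulated counts. Alternatives were 2 other filters, clusters present in both tissues, DESeq2 size factors, TMM within a tissue, the DESeq2 1.42.0 Wald test, the 12 libraries alone, a replicate block, an added log2 change of 1, other presence levels and each omission.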

Additional observations from a re-analysis of the deposited data

Results flagged for a closer look

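The response to the combined diet differed between brain and liver for 1557 clusters by the test of the difference itself. The named clusters called in opposite directions with the smallest adjusted p were picked out for that pattern. Cluster-2499.95251, an inhibitor of apoptosis, had a fitted log2 difference of 12.30, which is no bound because control brains held no count. The inhibitors Cluster-2499.97412 and Cluster-2499.76001 had differences of 3.40 and 3.07. Neogenin (Cluster-2499.92555) had 2.64 and gamma-glutamylcyclotransferase 1 (Cluster-2499.101116) 2.21. The amino acid transporter B(0)AT1 (Cluster-2499.95686) had -1.80, Millepora cytotoxin-1 (Cluster-2499.91776) -4.10 and the TRPV4 cluster (Cluster-2499.8951) a fitted value of -11.11, with 2 counts in control livers. All 8 kept the call for the difference in each of the 12 omissions.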

How the results depend on the processing

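The count of 1557 clusters was 3615 with the DESeq2 Wald test, 3715 with no filter on low counts and 818 with the variance estimated from the 12 libraries compared, and 892 to 1513 with 1 library left out (lowest without control liver 2, then 945 and 976 without combined liver 2 and 3). The brain count of 3032 was 4672, 5351 and 1681 under the same changes, 1530 among clusters present in both tissues, and 1788 to 3296 over the 12 omissions. It was 1788 to 2428 without a brain library, with 1788 without control brain 5 (875 higher, 913 lower, against 1761 and 1271) and 1920 without combined brain 5. The liver count of 3091 was 4735 by DESeq2, 5367 with no filter, 1888 among clusters present in both tissues, and 1031 to 3732 over the 12 omissions, with 1031 to 2510 without a liver library. It was 1031, 2039, 1653 and 1548 without control liver 2, control liver 3, combined liver 2 and combined liver 3. With presence set at 0.5 CPM, 87 called clusters were in brain alone, 179 in liver alone and 13 in neither, and at 2 CPM 341 were in neither. The cause of these shifts was not tested. Apart from that turn of the brain balance, no difference of a named cluster changed sign in any setting run. Of the 1557 calls for the difference, 724 were also made with the variance estimated from the 12 libraries compared. With that setting 26 of the 79 named clusters were weaker, and 13 were with the replicate number as a block. With the replicate number as a block 1148 clusters were called. For pairing, each library's deviations from its group mean (log CPM) were correlated between combined and control libraries of a tissue. Libraries of the same number gave -0.0907 to 0.202 in brain and -0.00989 to -0.00116 in liver, so the numbers were not taken as pairs. A pairing of brain with liver libraries was not checked. Of the 79 named clusters 46 kept the call in each omission. With 3 libraries a group, a cluster at 0 counts in a group has no upper limit to its fold change, and low clusters are limited by counting error.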

Other observations

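Clusters of transposable elements, whose transcripts come from mobile DNA, were called for the difference no more often than others. Of 486 tested 7 were positive and 2 negative (1.85%, against 1.98% of all clusters and 2.3% of those with informative names). A Pol polyprotein cluster (Cluster-2499.93286) was nevertheless tight within groups, at 46.3, 29.5 and 27.2 CPM in combined brains, against 5.79, 6.02 and 11.2 CPM in control brains. Livers held 15.7, 10.6 and 14.7 CPM under combined exposure, against 36.8, 30.5 and 27.3 CPM in controls (difference 3.37 ± 0.49, edgeR adjusted p = 0.000804; liver change adjusted p = 0.0505). The groups lay apart in both organs. A cluster named for the ubiquitin ligase DTX3 (Cluster-2499.111643) was at 0.446, 2.09 and 1.29 CPM in combined brains, against 0 CPM in each control brain. It was at 2.73, 3.36 and 1.79 CPM in combined livers, against 6.30, 4.0 and 4.87 CPM in control livers (edgeR adjusted p of the difference = 0.00322). Brains given cadmium alone held 13.6 ± 3.84 CPM and those given polystyrene alone 15.5 ± 3.17 CPM of it (SD, n = 3 each).

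The lipid pump ABCA3 (Cluster-2499.69072) rose in brain to 5.47, 2.88 and 3.72 CPM against 1.32, 0.276 and 0.717 CPM in controls, and held 6.29, 11.2 and 11.9 CPM in combined livers against 14.4, 8.76 and 8.69 CPM in control livers (difference 2.48 ± 0.52, edgeR adjusted p = 0.0122). The brain groups lay apart and the liver groups overlapped. Of 175 lipid metabolism clusters 1 was positive and 1 negative (1.14%, against 1.98% of all clusters and 2.3% of those with informative names). Their count was 1 without any 1 control liver, combined liver 2 or control brain 6. Of 207 peptidases and inhibitors 4 were positive and 0 negative (1.93%, close to the 1.98% of all clusters). There were 8 such calls without control liver 1 and 2 without combined liver 2. Of 109 neuronal clusters 1 was positive, ELAV-like protein 4 (Cluster-2499.118051), an RNA-binding protein of neurons, with an edgeR adjusted p of 0.0111 and of 0.0654 without control liver 2. The neuronal count was 2 without control liver 1 or combined liver 3 and 0 without control liver 2. Of 19 egg and albumen gland clusters 1 was called, Perivitellin-2, and 2 without control brain 6.

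Several central cell functions had 0 called differences by edgeR, though some of their sums lay apart. Of the 42 antioxidant clusters 2 rose and 0 fell in brain, with a median brain change of 0.15. Their sum was 5549, 4041 and 3355 CPM in combined brains, against 2354, 1900 and 2663 CPM in control brains, which lay apart. The muscle sum also lay apart in these brain libraries, and its part was not tested. The antioxidant sum was 1955, 2086 and 1978 CPM in combined livers and 2217, 2035 and 2216 CPM in control livers, which overlapped. The proteasome, ABC transporter and oxygen carrier sums lay apart in liver alone, lower under combined exposure. Over all clusters, 12092 of 78809 had an unadjusted p under 0.05, as had 3280 of the 19428 with informative names. At that unadjusted threshold there were 2 of 23 HSP70, HSP90 and co-chaperone clusters, 3 of 18 for folding in the endoplasmic reticulum and 5 of 56 for the proteasome, all with 0 calls by DESeq2. There were 8 of 42 antioxidant, 11 of 66 ABC transporter, 8 of 62 glycolysis and citric acid cycle, 7 of 103 ribosomal protein and 25 of 157 lysosomal clusters, with 2, 1, 2, 1 and 8 calls by DESeq2. The ABC transporter list is a name pattern and did not hold the ABCA3 cluster given above, which was called for the difference. Muscle had 10 of 51 and oxygen carriers and haemocytes 4 of 37, with 0 and 1 calls by DESeq2. With 1 library left out, glycolysis and the citric acid cycle had 5 calls without control brain 5 and 1 without combined brain 4 or 6, and oxygen carriers and haemocytes had 2 without control brain 4. There was 1 antioxidant call without combined liver 1 or 2, 1 ABC transporter call without control brain 5 or combined brain 5, and 1 proteasome call without combined liver 1. Lysosomal clusters had 1 call without combined liver 3, control brain 6 or any 1 combined brain.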
